A study of Homo sapiens with 4 samples.

Results

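The RAB GTPase genes of the human genome were selected by symbol, as RAB followed by a number and at most a letter and a further digit, so that RAB interactors were left out. Of the 53209 transcripts listed in each library, 42115 were NM_ (coding) transcripts of 18763 named genes, and 120 of these belonged to 63 RAB genes. All 120 had the status OK in the 4 libraries, and the locus listed for each overlapped the GENCODE 44 gene of the same symbol on hg38.

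RAB GTPases are the largest family of small GTPases that direct membrane traffic. Each RAB protein switches between a GTP-bound form, which recruits effectors to one kind of vesicle or organelle, and a GDP-bound form that is held in the cytosol. Exchange factors switch them on, GTPase-activating proteins switch them off, and a prenyl anchor attaches them to the membrane. In epithelial cancer cells, RAB27A and RAB27B are best known for docking secretory vesicles and exosomes at the plasma membrane.

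The RNA came from DU-145, a human prostate cancer line that came from a metastatic tumour. In both arms the cells received 60 nM of a miR-28-5p duplex and ultraviolet light of 365 nm at 2 J/cm2, and RNA held by streptavidin beads was sequenced. The 2 miR-28CT libraries came from cells given the untagged duplex, so they measure background RNA on the beads. The 2 miR-28BIO libraries came from cells given duplexes with a biotin tag at the 3′ end and a thiouridine at nucleotide 8 or 18, which can crosslink to bound RNA. Both arms thus carried added miR-28-5p, and neither is an untreated control. RNA from before the pull out was not analysed here, so the level of a transcript in the cells and its recovery on the beads cannot be told apart. In these bulk libraries, fewer cells with a transcript and less of it per cell cannot be told apart either.

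Values were FPKM (reads per length of transcript and per mapped library), divided by a scaling factor for each library (scaled FPKM). Gene values were sums over the NM_ transcripts. The depth behind the deposited values was estimated at 12.99 to 17.9 M reads per library, and the coverage of the RAB transcripts corresponded to 12287 to 25381 reads. Epithelial keratins and EPCAM were above 3 scaled FPKM in every library, with KRT8, KRT18 and KRT19 at 12.6 to 98.4 and EPCAM at 3.23 to 4.94, while CDH1 was at 0.852 to 1.63. The prostate luminal genes KLK2, KLK3 and TMPRSS2, the leukocyte genes PTPRC and CD3E, the endothelial genes PECAM1 and CDH5 and the fibroblast genes COL1A2 and DCN were listed at 0 in all 4. Of the other markers reported, CD68 was at 3.16 to 9.51, COL1A1 at 0.101 to 0.209, and VWF was above 0 in 1 library, at 0.0193.

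A mean of at least 0.5 scaled FPKM was required for testing, and 45 of the 63 RAB genes passed, with 62 of the 120 transcripts. The filter used the mean of all 4 libraries, and all counts below refer to these 45 genes. Among the 18 that were not tested, RAB3C, RAB6C, RAB19, RAB25, RAB36, RAB43 and RAB44 were listed at 0 in every library, and the highest mean of the other 11 was 0.465. The zeros of RAB43 and RAB6C are uncertain, as 90.7% and 56.3% of the 50-base stretches of their canonical transcripts also occur in other genes. For RAB43 these include the readthrough gene ISY1-RAB43, listed at 0 to 0.383 deposited FPKM. The tested RAB genes had a median of 5.80 scaled FPKM (quartiles 2.77 and 11.7), against 4.21 over all 10380 genes tested. RAB34, which acts in the positioning of lysosomes and in cilium formation, had the highest mean, 42.9. It was followed by RAB1B, RAB31, RAB7A, RAB12, RAB1A, RAB10 and RAB8A, which serve transport from the endoplasmic reticulum (RAB1A and RAB1B), the trans-Golgi and endosomes (RAB31), late endosomes (RAB7A), recycling endosomes (RAB12) and exocytic carriers (RAB8A and RAB10).

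To find RAB transcripts recovered with the tagged duplex, the 2 miR-28BIO libraries were compared with the 2 miR-28CT libraries. RAB27B and RAB38 stood at the top of the tested RAB genes by fold change. Neither passed the threshold without pairing of the replicates, and both passed it when libraries of the same replicate number were treated as pairs. With limma and Benjamini-Hochberg adjustment, 0 of 45 RAB genes were called in either direction, as were 0 of all genes tested (0.0% enriched and 0.0% depleted). At an unadjusted p of 0.05, 3 RAB genes were higher (RAB27B, RAB38 and RAB30) and 0 were lower, against 2.3% and 0.742% of all genes. When the replicate number entered limma as a block, 2 RAB genes were called enriched (RAB27B and RAB38) and 0 depleted, against 2.58% and 2.2% of all genes. At an unadjusted p of 0.05 the fit with the block had 8 RAB genes higher and 6 lower, against 11.0% and 16.9% of all genes. In the transcript fit 0 of 62 RAB transcripts were called without or with the block, as were 0.0% of all 15587 transcripts in either direction in both fits. At an unadjusted p of 0.05 in the unpaired fit, the transcripts of RAB27B and RAB38 (2 of 62) were higher and 1 transcript of RAB5C was lower, against 2.09% and 1.49% of all transcripts. The calls with the block depended on the settings. Without a trend in limma neither gene was called (adjusted p = 0.130 for each), and RAB27B was called in 7 and RAB38 in 5 of 8 fits with the block. With 2 libraries per arm, a two-sided exact permutation test of a single gene cannot go below 0.333.

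RAB27B is encoded on chromosome 18 of hg38, and its listed transcript NM_004163 runs from 54828477 to 54895516 with a length of 7003 bases. RAB27B had 1.81 scaled FPKM in the first and 1.56 in the second miR-28CT replicate, against 13.04 and 14.8 in the miR-28BIO replicates. Both miR-28BIO libraries were far above both miR-28CT libraries, and the replicates of an arm lay close together. The log2 fold change was 2.98 (standard error, SE, 0.41, with an adjusted p of 0.851 in limma). With the replicate block the standard error was 0.19 and the adjusted p was 0.0332 (limma). In the fit of single transcripts the adjusted p with the block was 0.347 (limma). Its coverage corresponded to an estimated 241 and 120 reads in the miR-28CT and 1670 and 1652 reads in the miR-28BIO replicates. The deposited FPKM of RAB27B lay outside its own interval in all 4 libraries. In miR-28CT replicate 1 the deposited interval was 1.21 to 1.80, below the deposited value of 1.93, and in replicate 2 it was 2.1004 to 3.01, above the deposited value of 1.33. In miR-28BIO replicate 1 it was 8.35 to 9.79, below the deposited value of 13.8, and in replicate 2 it was 20.9 to 23.2, above the deposited value of 16.1. Values outside their interval were found for 45 of the 248 values of tested RAB transcripts, so the intervals were not used as errors and entered only 1 alternative count of separate arms.

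RAB27A, the nearest relative of RAB27B and the RAB of melanosomes and lytic granules, was at 1.53 and 1.19 scaled FPKM in the miR-28CT replicates and at 1.81 and 1.25 in the miR-28BIO replicates. These values overlapped. Its log2 fold change was 0.14 (SE 0.51, limma adjusted p = 1.00). Both genes thus lay between 1.19 and 1.81 in the miR-28CT arm, and the difference between their fold changes was not tested. RAB27A has 4 listed transcripts, and the FPKM was assigned to different ones of them in different libraries. NM_183236 was listed at 0 and 0.478 in the miR-28CT and at 1.81 and 1.25 in the miR-28BIO replicates, while the sum did not move in this way.

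**Figure D1:**
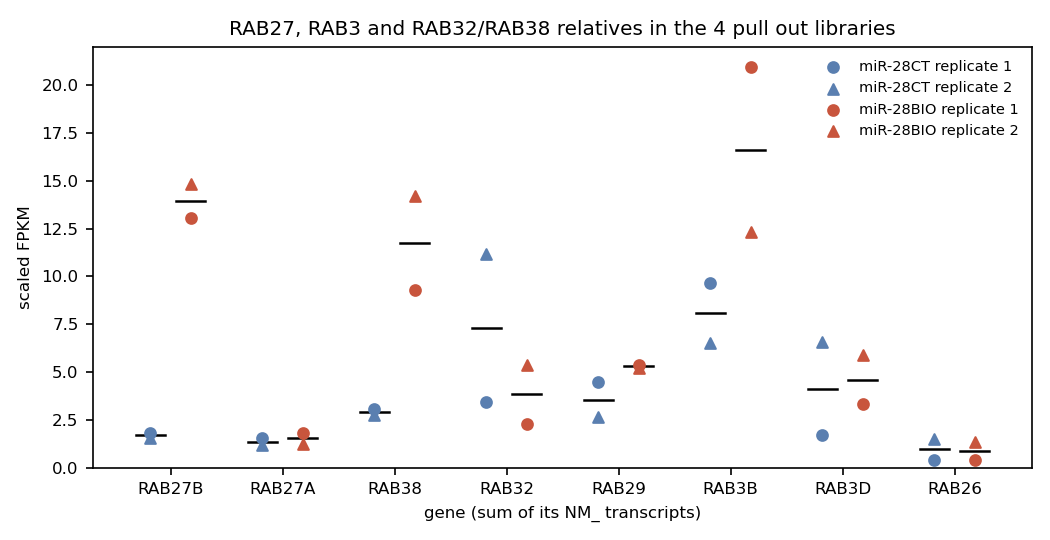
Scaled FPKM (vertical axis, linear) of 8 RAB genes in the 4 libraries, with miR-28CT in blue and miR-28BIO in red, circles for replicate 1 and triangles for replicate 2, and black bars for the mean of each arm. RAB27B and RAB38 have both miR-28BIO libraries well above both miR-28CT libraries, whereas RAB27A overlaps between arms and RAB32 is highest in miR-28CT replicate 2.

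RAB38 and RAB32 sort cargo to melanosomes and other lysosome-related organelles. RAB38 lies on chromosome 11 (88113247 to 88175467) and was at 3.09 and 2.75 scaled FPKM in the miR-28CT and at 9.29 and 14.2 in the miR-28BIO replicates. The arms did not overlap, and the miR-28BIO replicates differed more from each other than the miR-28CT replicates. The deposited FPKM of RAB38 also lay outside its interval in miR-28CT replicate 2 (2.34 against 3.97 to 6.56) and in miR-28BIO replicate 1 (9.80 against 6.15 to 9.09), and these 2 intervals overlapped. The log2 fold change was 1.94 (SE 0.45, limma adjusted p = 1.00), and with the replicate block the standard error was 0.25 and the adjusted p was 0.0462. RAB32 was at 3.46 and 11.2 scaled FPKM in the miR-28CT and at 2.30 and 5.37 in the miR-28BIO replicates. In RAB32 replicate 2 was above replicate 1 in both arms, the arms overlapped, and the log2 fold change was -0.80 (SE 0.80, limma adjusted p = 1.00 without and 0.103 with the block). RAB29, the relative of both that acts at the Golgi and lysosomes, was at 4.46 and 2.63 in the miR-28CT and at 5.37 and 5.24 in the miR-28BIO replicates. Its log2 fold change was 0.61 (SE 0.47).

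Among all 45 genes, both miR-28BIO values lay above both miR-28CT values in 12, which is 26.7% against 12.4% of all genes tested. They lay below in 4, or 8.89%, against 12.9% of all genes, and overlapped in 29. A gap of at least 2-fold between the arms was found above in 3 RAB genes (RAB27B, RAB38 and RAB30) and below in 0, against 2.2% and 0.829% of all genes. The median log2 fold change of the RAB genes was 0.07 (quartiles -0.45 and 0.44), and that of all genes was -0.09 (quartiles -0.47 and 0.29). The fold change was positive in 24 RAB genes (53.3%, against 43.8% of all genes) and negative in 21. Its size reached at least 1 on the log2 scale in 6 RAB genes (13.3%, against 6.24% of all genes) and -1 or less in 1 (2.22%, against 8.35%).

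**Figure D2:**
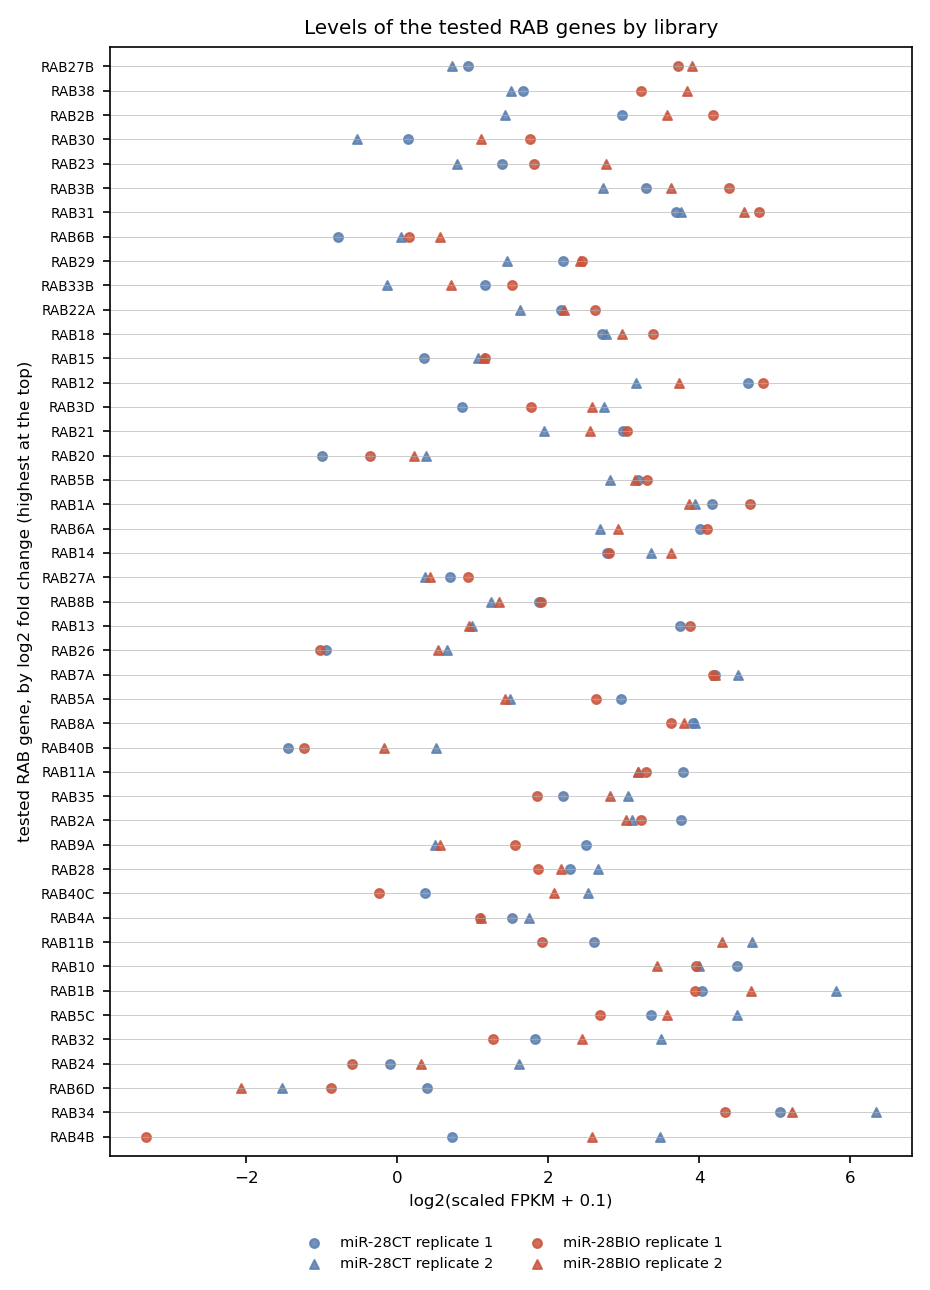
Log2(scaled FPKM + 0.1) on the horizontal axis for the 45 tested RAB genes, ordered by log2 fold change with the highest at the top, with miR-28CT in blue, miR-28BIO in red, circles for replicate 1 and triangles for replicate 2. The arms are apart in RAB27B, RAB38 and RAB30. In RAB13 and RAB26, near the middle of the plot, libraries of the same replicate number lie side by side.

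After RAB27B and RAB38, the next genes in order were RAB2B, RAB30, RAB23, RAB3B, RAB31 and RAB6B, and in each of them the arms were apart. RAB2B, which acts between the endoplasmic reticulum and the Golgi, was at 7.74 and 2.58 scaled FPKM in the miR-28CT and at 18.1 and 11.8 in the miR-28BIO replicates. The replicates of RAB2B lay apart in both arms, and the log2 fold change was 1.68 (SE 0.69, limma adjusted p = 1.00 without and 0.0569 with the block). RAB30, a Golgi RAB, was at 1.00 and 0.589 in the miR-28CT and at 3.29 and 2.07 in the miR-28BIO replicates. It had a log2 fold change of 1.64 (SE 0.56), and its adjusted p with the block, 0.0501, lay just outside the threshold. RAB23, a regulator of Hedgehog signalling at the cilium, was at 2.52 and 1.64 in the miR-28CT and at 3.42 and 6.67 in the miR-28BIO replicates. Its log2 fold change was 1.19 (SE 0.55), and most of it came from replicate 2, where the difference was 1.96 against 0.42 in replicate 1.

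RAB3B, which takes part in regulated secretion, was at 9.67 and 6.53 scaled FPKM in the miR-28CT and at 20.96 and 12.3 in the miR-28BIO replicates. Its log2 fold change was 1.01 (SE 0.52, limma adjusted p = 1.00 without and 0.0572 with the block). RAB31 was at 12.8 and 13.5 in the miR-28CT and at 27.7 and 24.0 in the miR-28BIO replicates. It was the RAB gene with the highest level among those with separate arms above, and its log2 fold change was 0.97 (SE 0.43, limma adjusted p = 1.00 without and 0.0610 with the block). RAB6B, a Golgi RAB, had a log2 fold change of 0.73 (SE 0.63) at levels of 0.483 to 1.38. The other genes in which both miR-28BIO values exceeded the miR-28CT values were RAB29, RAB22A, RAB18 and RAB15, with log2 fold changes of 0.44 to 0.61.

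The lowest log2 fold changes were those of RAB4B, RAB34, RAB6D, RAB24, RAB32, RAB5C, RAB1B and RAB10. RAB4B, a RAB of early and recycling endosomes, was at 1.56 and 11.0 scaled FPKM in the miR-28CT replicates, was listed at 0 in miR-28BIO replicate 1 and was at 5.88 in replicate 2. The arms overlapped, and the log2 fold change of -2.47 had a standard error of 2.26. All 50-base stretches (100%) of the canonical RAB4B transcript also occur in the readthrough genes MIA-RAB4B and RAB4B-EGLN2, both listed at 0 in every library. Reads of the read length cannot be told apart between these genes, so the RAB4B values are uncertain. In RAB34, RAB6D, RAB24, RAB32, RAB5C and RAB1B the arms overlapped as well, at log2 fold changes of -0.92 to -0.61. All 6 were lower in miR-28BIO in both replicate numbers, with log2 differences of -0.74 and -1.11 in RAB34 and of -0.67 and -0.92 in RAB5C. With the block the adjusted p (limma) was 0.0719 for RAB34, 0.0804 for RAB5C and 0.103 to 0.427 for the other 4. RAB6D and RAB6A share 45.9% and 21.2% of their 50-base stretches with other members of the RAB6 group, RAB5C shares 43.9% with an unnamed gene and RAB24 shares 57.1% with MXD3.

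The arms were apart in the other direction in 4 genes. RAB10, which acts in exocytic transport to the plasma membrane, was at 22.6 and 15.9 scaled FPKM in the miR-28CT and at 15.4 and 10.8 in the miR-28BIO replicates. The gap between the arms was small against the difference between replicates, and the log2 fold change was -0.56 (SE 0.48, limma adjusted p = 1.00 without and 0.122 with the block). RAB4A of recycling endosomes, RAB28 of the cilium and RAB8A of exocytic carriers had log2 fold changes of -0.53, -0.45 and -0.22.

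**Figure D3:**
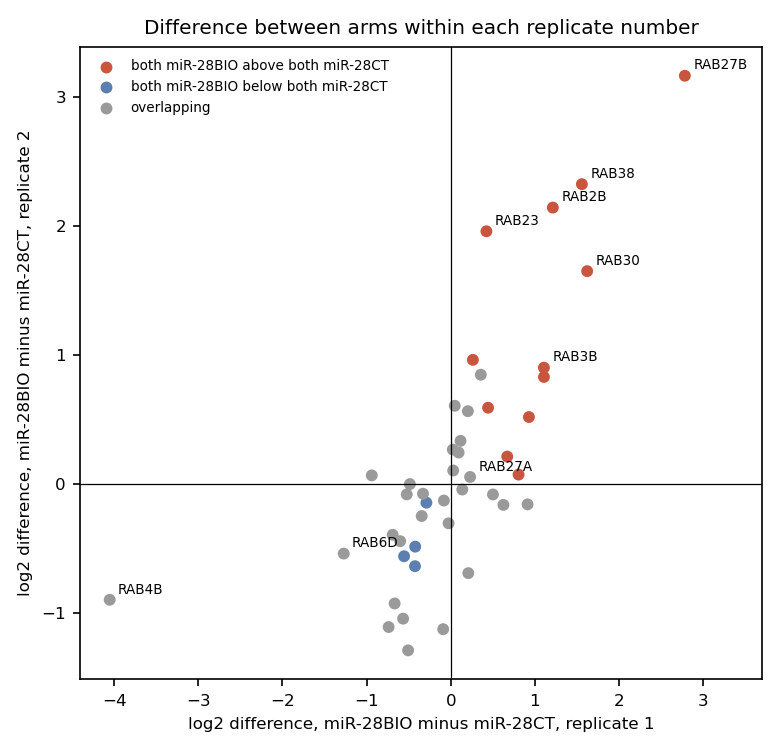
Log2 difference between miR-28BIO and miR-28CT in replicate 1 (horizontal axis) and in replicate 2 (vertical axis) for the 45 tested RAB genes, in red where the miR-28BIO values all exceeded the miR-28CT values, in blue where they all fell short and in grey where they overlapped. RAB27B is at 2.78 and 3.17 and RAB38 at 1.56 and 2.33, and RAB4B lies far to the left at -4.05 and -0.90.

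Within replicate numbers, the difference between arms was positive in both in 20 RAB genes (44.4%) and negative in both in 18 (40.0%), against 30.6% and 40.3% of all genes. RAB27B had 2.78 in replicate 1 and 3.17 in replicate 2, RAB38 had 1.56 and 2.33, and RAB30 had 1.62 and 1.65. The difference between arms exceeded the larger of the differences between replicates in 12 of the 45 genes. In 11 genes the replicates were over 2-fold apart in both arms. Neither count was made over all genes, so neither can be read as particular to the RAB genes. RAB13, an exocytic RAB of epithelial junctions, was at 13.3 and 1.89 scaled FPKM in the miR-28CT and at 14.6 and 1.83 in the miR-28BIO replicates. Its replicates were far apart and its arms were not, with a log2 fold change of 0.05 (SE 1.42). RAB13 also shares 56.9% of its 50-base stretches with 2 unnamed genes.

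By branch of the family, the genes of the secretory RAB27 and RAB3 branch had a median log2 fold change of 0.38 (5 tested of 9, range -0.10 to 2.98). Apart from RAB27B and RAB3B, the tested genes of this branch were RAB27A, RAB3D and RAB26, with log2 fold changes of 0.14, 0.38 and -0.10 and overlapping arms. The 10 tested of 19 RABs of the endoplasmic reticulum and Golgi had a median of 0.33 (range -0.92 to 1.68), with 4 apart above and 0 below, beside 12.4% and 12.9% of all genes. The 14 tested of 16 RABs of early and recycling endosomes had a median of -0.03 (range -2.47 to 0.97), with 3 apart above and 1 below. The 5 exocytic RABs of the RAB8 branch had a median of 0.05 (range -0.56 to 0.39), with 0 apart above and 2 below. RAB7A, RAB9A and RAB24 of late endosomes, lysosomes and autophagosomes had log2 fold changes of -0.16, -0.43 and -0.90, with overlapping arms in each. RAB40B and RAB40C, which carry a SOCS box for ubiquitin ligase assembly, had log2 fold changes of -0.24 and -0.52.

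The transcripts within a gene did not always move together. In 11 RAB genes several transcripts were tested, and in RAB34 and RAB6A the log2 fold changes reached at least 1 in some and -1 or less in others, with 0 of them called. In RAB34 the 5 tested transcripts ranged from -4.63 to 2.85, while the sum had a log2 fold change of -0.92. NM_001256276 was at 61.5 scaled FPKM in miR-28CT replicate 2 and was listed at 0 in the other 3 libraries. NM_031934 was at 19.1 and 32.0 in miR-28CT and miR-28BIO replicate 2 and was listed at 0 in replicate 1 of both arms. NM_001256278 was the reverse, at 22.7 and 13.7 in replicate 1 of both arms and listed at 0 in replicate 2. A different transcript thus carried most of the RAB34 signal in different libraries. In RAB6A, the main RAB of transport through the Golgi, the 3 tested transcripts ranged from -2.57 to 2.54 and the sum had 0.17. NM_001243719 was at 11.9 and 1.69 in the miR-28CT and at 14.6 and 1.78 in the miR-28BIO replicates.

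**Figure D4:**
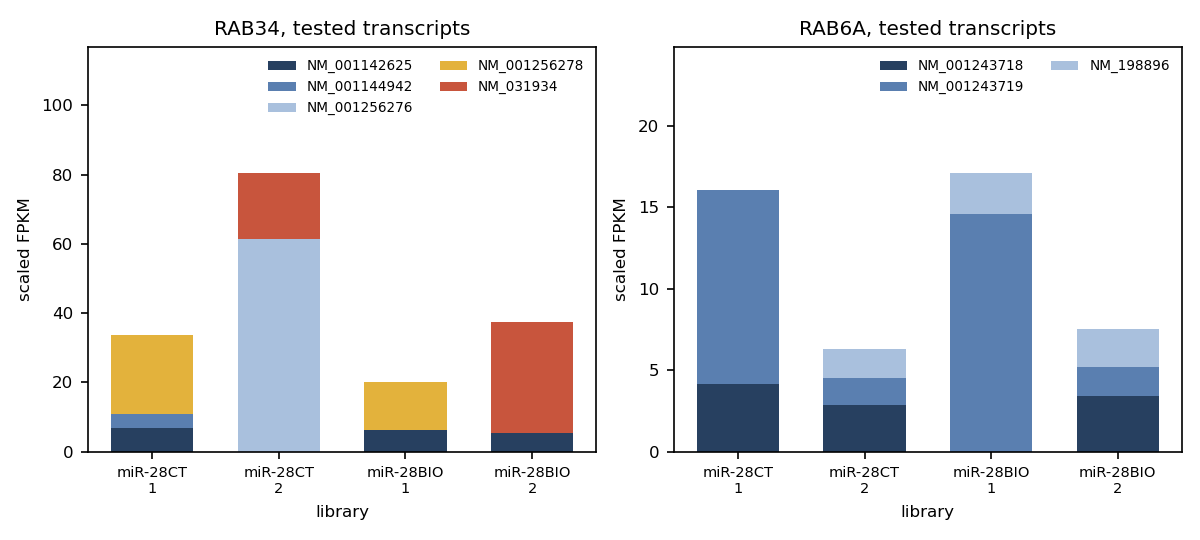
Scaled FPKM (vertical axis, stacked from 0) of the tested transcripts of RAB34 and RAB6A in the 4 libraries, with a colour for each transcript. In RAB34 the transcript with the most FPKM was NM_001256278 in replicate 1 of both arms, NM_001256276 in miR-28CT replicate 2 and NM_031934 in miR-28BIO replicate 2.

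Base composition and length of the canonical GENCODE 44 transcripts moved with the differences. Across the 45 RAB genes, which share these 4 libraries and are not independent, GC content had a Pearson r of 0.70 (Spearman rho 0.67) with the log2 difference between replicates 2 and 1, against 0.65 across 10300 genes. With the fold change between arms it had r of -0.46 (rho -0.41), against -0.20 across all genes. The log2 length of the 3′UTR had r of 0.54 (rho 0.59) with the fold change between arms, against 0.30. The same relation was found within both replicate numbers, at 0.50 and 0.51. RAB27B has a 3′UTR of 6103 bases and a GC content of 35.1%, against a median 3′UTR of 2260 bases in the RAB genes, whereas RAB38 has a 3′UTR of 737 bases and a GC content of 46.5%. RAB34 and RAB4B, at the lower end, have 3′UTRs of 359 and 388 bases and a GC content of 60.7% and 61.6%. The part of length and composition in the fold changes was not tested.

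**Figure D5:**
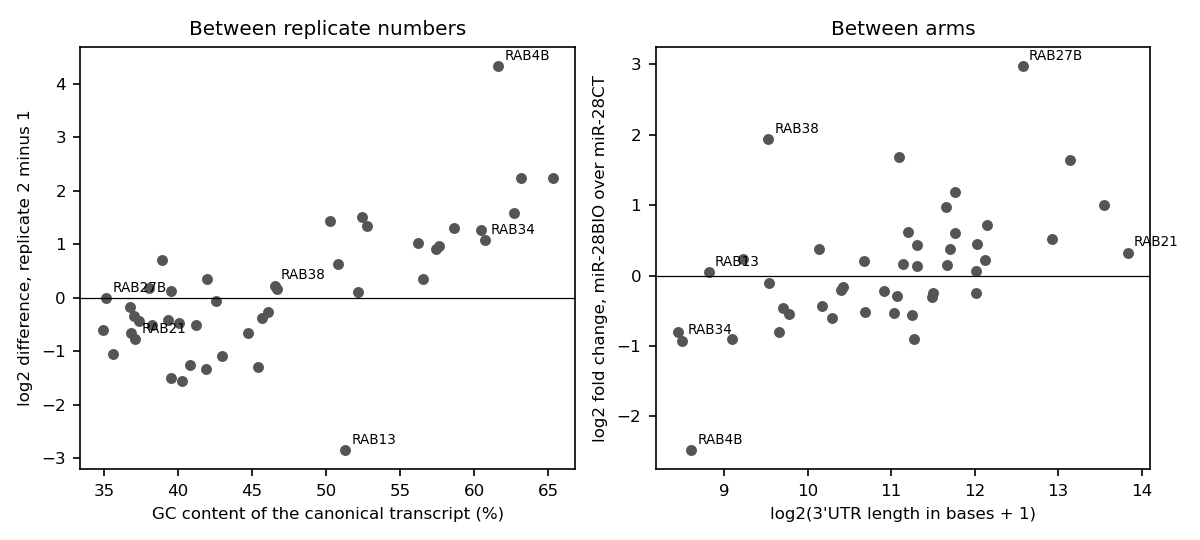
Left, log2 difference between replicates 2 and 1 (mean of both arms) against the GC content in percent of the canonical transcript, and right, log2 fold change between arms against log2 of the 3′UTR length in bases, with a point for each of the 45 tested RAB genes. The points rise from left to right in both panels (r of 0.70 and 0.54), with RAB13 far below the others on the left and RAB38 above those with 3′UTRs of similar length on the right.

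The regulators of RAB proteins were compared in the same fits. Without the block, 0 of the 75 tested genes of 5 lists were called. With the block, 1 of 32 RAB GTPase-activating proteins was enriched (TBC1D9) and 1 of 4 RAB-like small GTPases (RABL3), 0 were depleted, and 0 were called among 25 exchange factors, 8 genes of prenylation and recycling and 6 RAB27 effectors. Of all genes 2.58% were enriched in this fit, and in the fit with the block and no trend 0 of 10380 genes were called. TBC1D9, a GTPase-activating protein with a TBC domain, was at 2.07 and 1.96 scaled FPKM in the miR-28CT and at 9.07 and 10.4 in the miR-28BIO replicates. Its log2 fold change was 2.21 (SE 0.40, limma adjusted p = 1.00 without and 0.0332 with the block). RABL3, a small GTPase related to the RABs, was at 1.23 and 0.796 in the miR-28CT and at 8.50 and 7.01 in the miR-28BIO replicates. Its arms were apart, with a log2 fold change of 2.84 (SE 0.46, limma adjusted p = 1.00 without and 0.0332 with the block).

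The effectors through which RAB27 proteins act did not reach such values. EXPH5, which binds RAB27 on vesicles, was at 1.06 and 0.589 in the miR-28CT and at 1.70 and 1.08 in the miR-28BIO replicates, with a log2 fold change of 0.71 (SE 0.61). The synaptotagmin-like proteins SYTL4, SYTL2 and SYTL1 had log2 fold changes of 0.26, 0.00 and -0.89. The motor MYO5A, which carries RAB27A-bound melanosomes along actin, had 0.27. Of the prenylation genes, the escort proteins CHM and CHML and the transferase subunit RABGGTB had log2 fold changes of 0.73, 0.77 and 0.91 with overlapping arms. GDI2, which extracts GDP-bound RABs from membranes, had both miR-28BIO values below both miR-28CT values, at a log2 fold change of -0.64 (limma, adjusted p with the block 0.105). At the ends of the other lists, the exchange factors MON1A and RAB3IP had log2 fold changes of 1.196 and -0.99 (SE 1.04 and 0.84), the GTPase-activating protein TBC1D10A had -1.29 (SE 0.88) and the intraflagellar transport GTPase IFT27 had -0.97 (SE 1.10), each with overlapping arms. RABAC1, a receptor for prenylated RABs, had -0.89 (SE 1.65). The medians of the 5 lists lay between -0.21 and 0.22, beside -0.09 over all genes.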

How the data were processed

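RNA recovered by the miRNA pull out from DU-145 cells was compared between 2 miR-28CT and 2 miR-28BIO libraries, grouped by their labels. According to the paper's methods and the submitters' processing notes, single reads of 50 bases were aligned to hg38 with TopHat2 (2.0.9) and abundances were estimated with Cufflinks (2.1.1), FastQC (0.10.1) and cutadapt also being named. The authors deposited, per library, an FPKM value for every transcript, the bounds of its Cufflinks interval, a status and its mean read coverage. The deposited coverage signal served only to estimate reads, as coverage times length over 50. The labels do not give read counts per gene, so count models were not used. Intervals for counting error were not calculated.

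FPKM of the 52530 transcripts whose status was OK throughout were divided by median-of-ratios factors of 1.06, 0.850, 1.06 and 1.09 (miR-28CT 1 and 2, miR-28BIO 1 and 2) from the 11650 above 0 in all. NM_ transcripts were summed per symbol, and 10380 genes and 15587 transcripts whose mean reached 0.5 entered limma (3.58.1, R 4.3.3) as log2(scaled FPKM + 0.1) with a trend, without a block, with Benjamini-Hochberg adjustment over all of them and a threshold of 0.05. Fold changes on this scale understate those of low genes. The scripts were tested on simulated data in which same-numbered libraries shared no replicate effect. The block was therefore not tested on pairs like those of the real libraries.

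Same-numbered libraries were taken as pairs because the labels number both arms alike and the methods describe 2 biological replicates that gave both arms. No label states a shared day or batch, and with 2 pairs the data cannot settle it. Their deviations from the arm means correlated with r = 0.75 (rho = 0.83) across 10380 genes. P-values measure the spread between these libraries.

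Canonical GENCODE 44 transcripts (found for 99.2% of tested genes) gave length, GC content and shared 50-base stretches of the sense strand. The sites of miR-28-5p were not analysed here. Values of 2 list genes that would otherwise be given are not reported here, although list counts include them. The RAB genes and lists were chosen with earlier results of these data known. Genes named are RAB27B, RAB38 and their relatives, called genes, the 8 highest by level, the 8 highest and 8 lowest by fold change, genes with opposite transcripts, and, of the 5 lists, called genes and some of the 3 highest and 3 lowest by fold change. RAB13, the genes with separated arms, those with shared sequence and the rest of each branch were added after their values were seen. Alternatives were other pseudocounts, filters, scalings and sums, other limma settings, the block and leaving out each library. Other tools were matplotlib 3.10.9, scipy 1.17.1, pandas 2.3.3, numpy 2.4.6 and Python 3.11.15.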

Additional observations from a re-analysis of the deposited data

How the results depend on the processing

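Without the replicate block, 0 RAB genes and 0 RAB transcripts were called under any alternative run. With the block, 2 RAB genes were called. Block fits combined with a further choice were added after seeing the data, and gave 1 (NM_ and NR_ summed), 1 (pseudocount 0.01), 3 (pseudocount 1), 7 (FPKM as deposited), 4 (upper quartile scaling), 6 (mean of at least 2) and 0 (without a trend). RAB27B was called in 7 of these 8 block fits, at log2 fold changes of 2.98, 2.98, 3.04, 2.48, 3.14, 3.04 and 2.98 in the order block alone and then as listed, and adjusted p of 0.000231 to 0.130 over all 8 (limma). RAB38 was called in 5, at 1.94, 1.68, 2.11, 2.00 and 1.94 (block alone, pseudocount 1, as deposited, upper quartile, mean of at least 2; adjusted p of 0.00298 to 0.130 over all 8). The calls with FPKM as deposited were 6 enriched and 1 depleted (RAB4B), and those with a mean of at least 2 were 5 enriched and 1 depleted (RAB34). All other calls were enriched. Beside RAB27B and RAB38, these were RAB2B (pseudocount 1, as deposited, mean of at least 2) and RAB3B (as deposited, upper quartile, mean of at least 2). RAB30 (as deposited, upper quartile) and RAB31 (as deposited, mean of at least 2) were the others. Over all genes, the block alone gave 268 enriched and 228 depleted, and the combined fits, in the order listed, gave 42 and 22, 133 and 49, 274 and 215, 510 and 342, 308 and 229, 443 and 556 (of 7693 genes), and 0 and 0. In the 15 other fits RAB27B was at 2.48 to 3.14 and RAB38 at 1.64 to 2.25, with 0 calls.

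Against 12 RAB genes with separate arms above and 4 below, a 2-fold gap gave 3 and 0, and FPKM as deposited gave 13 and 2. Deposited intervals apart gave 5 and 1, and no share over all genes is given beside this count. Outside these intervals lay 45 of 248 values of tested RAB transcripts. Leaving out each library gave 13 to 21 above and 9 to 18 below, since 1 value then stands for an arm, and over all 10380 genes 2543 to 3395 above and 2997 to 4022 below. With FPKM as deposited the median of all genes moved from -0.09 to 0.08 and that of the RAB genes from 0.07 to 0.23, and separate arms changed from 1283 above and 1340 below to 1622 and 891 over all genes. The RAB median was -0.028 with no filter except above 0, and 0.043 to 0.15 with each library left out, reaching 0.15 without miR-28BIO replicate 1. Sites of miR-28-5p were not analysed, so no alternative for them was run. The block and the trend do not enter the separation of arms or the median. The depth per transcript was only estimated, and its effect on the calls was not tested.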
